A study of Mus musculus with 2 samples.

Results

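Cathepsins are proteases of the lysosome, and prosaposin is the precursor of the saposins, small proteins that help lysosomal enzymes to reach their lipid substrates. A named list of 10 genes was followed, namely Ctss, Ctsb, Ctsz, Ctsc, Ctsh, Ctsl, Ctsd, Ctse, Ctsa and Psap, out of 13211 genes in the count tables of the bone marrow sc-RNA-seq experiment, and all 10 were listed in both tables. They were described across monocyte-like and neutrophil-like cells, across the other cell classes, and between Col1a1fspKO and WT mice.

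Ctss, Ctsb, Ctsz, Ctsc, Ctsh and Ctsl encode cysteine proteases (cathepsins S, B, Z, C, H and L), Ctsd and Ctse encode aspartic proteases (cathepsins D and E), and Ctsa encodes a serine carboxypeptidase that also protects the enzymes Glb1 and Neu1 in the lysosome. Most cathepsins are made as inactive precursors and mature in acidic compartments, where they degrade proteins. Some have narrower known tasks, such as cathepsin S in trimming the invariant chain Cd74 during antigen presentation and cathepsin C in activating the serine proteases of granules. Macrophages and their monocyte precursors are known for a high content of lysosomal enzymes, whereas neutrophils store other proteases in granules.

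Each genotype had 1 library, made from marrow flushed from femur and tibia of 2 mice that were pooled and sorted for live cells. Col1a1fspKO mice were Fsp1-Cre;Col1a1flox/flox, and the WT littermates were Cre-negative;Col1a1flox/flox, so both groups carried the floxed Col1a1 alleles, and both were 2 months old. In Col1a1fspKO mice (the knockout), the promoter of Fsp1 (S100a4) drives Cre, and S100a4 itself had a UMI in 23.8% of Col1a1fspKO cells and 27.5% of WT cells. Col1a1 had 3 UMIs in Col1a1fspKO and was found in 0 of 1169 WT cells, too few to check the deletion here. The pooled mice cannot be separated, so there was no replicate and no test between genotypes.

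The tables held 1309 cells with 8647722 UMIs for the knockout and 1169 cells with 8624469 UMIs for WT, a UMI (unique molecular identifier) being 1 captured mRNA molecule. The shallowest cells had 2540 and 2909 UMIs, respectively, and 2 cell barcodes occurred in both libraries. For each class and library, UMIs were added up over cells and given per 1000000 UMIs of that class (CPM). The 95% intervals in parentheses cover counting error only, not the spread between mice. Since the chemistry reads the 3' end of transcripts, levels were compared between cells for the same gene and not between genes.

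Clustering gave 16 clusters, which formed 14 classes. Cluster 0, led by Wfdc17, Clec4a3 and Clec4a1, was called mature monocyte-like (176 cells in the knockout and 191 in WT), and clusters 9 and 11 early monocyte-like (91 and 85 cells). The neutrophil-like cells (515 and 427) fell into cluster 4, led by Fcnb and left without a stage name, then immature, maturing and mature neutrophil-like cells. Mature neutrophil-like cells made up 8.79% of the knockout cells and 3.68% of the WT cells. The members were kept out of the genes used for clustering, although Ctss still stood among the 10 leading genes of cluster 0.

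The promoters of a few members are shown because monocyte and lysosome genes are often described through binding motifs of PU.1, a transcription factor of myeloid cells, and of TFEB, which controls many lysosomal genes. In RefSeq's GRCm38.p6 table, 7 of the 10 members had a promoter entry (9 promoters), while Ctsb, Ctsh and Ctse had none. The windows searched ran from 250 bases before to 50 after the transcription start. The letters CACGTG, the core bound by TFEB, occurred on either strand in the promoters of Ctsa, Ctsd and Ctsl, and in 7.15% of 32851 promoters of the same length. The same core with GT before it and AC after it, the full CLEAR element, occurred in 0 of the members' promoters and in 0.326% of all. The letters GAGGAAGT, a form of the PU.1 motif, occurred in those of Ctss and Ctsc and in 3.20% of all. Capitals mark these letters, or ACTTCCTC where they lie on the other strand, in the first 270 bases of each window, printed 5′ to 3′ on the strand of the gene:
Ctss, chr3:95526536-95526805, + strand: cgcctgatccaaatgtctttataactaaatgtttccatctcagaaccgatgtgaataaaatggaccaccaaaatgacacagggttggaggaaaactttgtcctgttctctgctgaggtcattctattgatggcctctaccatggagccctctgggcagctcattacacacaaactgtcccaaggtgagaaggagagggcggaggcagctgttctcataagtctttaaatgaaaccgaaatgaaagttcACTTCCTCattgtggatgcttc
Ctsc, chr7:88277835-88278104, + strand: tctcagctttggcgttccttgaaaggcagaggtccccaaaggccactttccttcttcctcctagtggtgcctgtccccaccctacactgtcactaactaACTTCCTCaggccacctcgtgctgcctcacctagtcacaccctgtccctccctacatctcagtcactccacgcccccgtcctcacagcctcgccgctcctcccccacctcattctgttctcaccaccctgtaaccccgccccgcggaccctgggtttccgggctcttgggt
Ctsd, chr7:142387808-142388077, - strand: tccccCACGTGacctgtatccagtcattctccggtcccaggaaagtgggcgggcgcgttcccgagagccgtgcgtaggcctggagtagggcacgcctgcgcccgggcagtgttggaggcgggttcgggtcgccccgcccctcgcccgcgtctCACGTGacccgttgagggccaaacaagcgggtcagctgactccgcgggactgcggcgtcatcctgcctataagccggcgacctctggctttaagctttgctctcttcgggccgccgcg
Ctsa, chr2:164833523-164833792, + strand: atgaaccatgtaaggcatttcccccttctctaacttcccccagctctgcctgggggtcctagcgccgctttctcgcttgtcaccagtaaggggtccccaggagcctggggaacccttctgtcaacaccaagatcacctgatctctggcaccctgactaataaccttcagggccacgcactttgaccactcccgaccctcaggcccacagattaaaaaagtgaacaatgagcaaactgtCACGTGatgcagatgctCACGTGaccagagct
The match in Ctss began 2 bases before the start and that in Ctsc 151 bases before it. In Ctsd, matches to CACGTG began 245 and 98 bases before the start. A further Ctsa promoter, at chr2:164832622-164832891, had 0 matches and is not printed. A match describes letters in the window and does not show that a factor binds there. In GENCODE M21 (GRCm38), the protein-coding genes lie at chr3:95526786-95556403 (Ctss), chr7:88278085-88310888 (Ctsc), chr7:142375911-142388038 (Ctsd), chr2:164832873-164841032 (Ctsa), chr2:174427493-174439039 (Ctsz), chr9:90054152-90076089 (Ctsh), chr13:64359337-64370890 (Ctsl), chr14:63122462-63145923 (Ctsb), chr1:131638306-131675505 (Ctse) and chr10:60277627-60302597 (Psap).

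Monocyte-like cells stood above neutrophil-like cells for most of the list. Over all clusters of each kind, 8 of the 10 members (Ctss, Ctsb, Ctsz, Ctsc, Ctsh, Ctsl, Ctsa and Psap) were at least 2-fold higher in monocyte-like cells in both libraries, against 32.8% of all genes with at least 50 UMIs. Ctse was at least 2-fold lower, against 6.26% of all genes, and Ctsd was the remaining member. The 20 most abundant genes took 52.3% of the UMIs of neutrophil-like cells in the knockout but 13.4% of those of monocyte-like cells (52.0% and 13.5% in WT), which lowers every other gene in neutrophil-like cells. The median log2 ratio of all genes was 0.84 in the knockout and 0.72 in WT, and it was -0.02 and -0.13 when those 20 genes were left out of the totals. The same count of 8 members stood at least 2-fold above that median in both libraries, with either total.

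**Figure D1:**
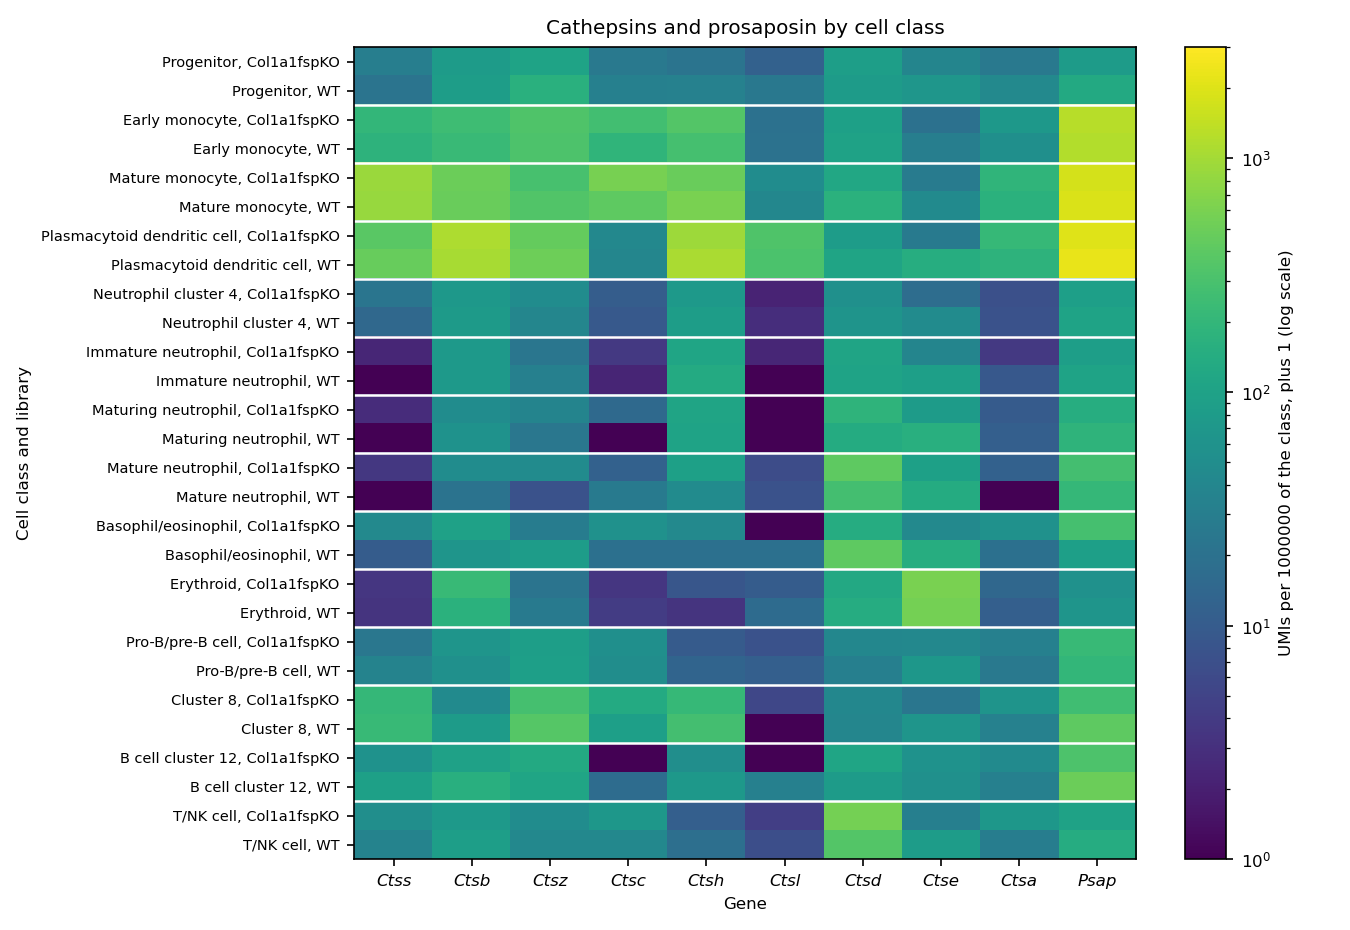
Colour gives the level of each member (columns) in each cell class and library (rows), in CPM plus 1 on a log scale, with the ending "-like" left out of the class names. Ctss and Ctsc are high in both monocyte classes, Ctsl in plasmacytoid dendritic cells and Ctse in erythroid cells.

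The cysteine protease Ctss had the widest difference. It reached 535 CPM in monocyte-like cells of the knockout and 541 CPM in WT, and 8.44 and 6.31 CPM in neutrophil-like cells, where it had 21 and 15 UMIs. The ratio was 63.4 (41.3 to 103) in the knockout and 85.7 (51.7 to 154) in WT, and monocyte-like cells held 82.3% and 83.5% of all Ctss UMIs. After all cells were thinned to 2500 UMIs (0 cells were too shallow for this), 83.0% of mature monocyte-like cells of the knockout and 87.4% of WT had a Ctss UMI (94.3% and 97.4% unthinned). Erythroid-like cells, in which Ctss is not known as a product, had a Ctss UMI in 1.05% and in 0 of 95 cells (at most 3.16%) after thinning, and in 3.16% of cells in either library before. Their median depth was 9422 and 11812 UMIs, against 5466 and 5113 in mature monocyte-like cells, so the shares did not follow depth.

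Ctsc, which encodes the dipeptidyl peptidase that activates granule proteases, was at 417 CPM in monocyte-like cells of the knockout and 301 CPM in WT. Neutrophil-like cells, whose granule proteases it processes, had 8.84 and 5.89 CPM, or 22 and 14 UMIs. The ratio was 47.1 (30.9 to 75.6) and 51.1 (30.2 to 94.0). Ctsl, a further cysteine protease, was lower in abundance, with 33.1 and 29.9 CPM against 1.61 and 1.26 CPM, and the neutrophil-like values rest on 4 and 3 UMIs.

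Ctsa, the protective protein of the sialidase and beta-galactosidase complex, was at 128 CPM in monocyte-like and 6.43 CPM in neutrophil-like cells of the knockout, and at 110 and 7.16 CPM in WT. Psap, the saposin precursor, was at 1524 against 130 CPM and at 1583 against 123 CPM, ratios of 11.7 and 12.8. Both genes thus kept the same order of the classes as Ctss and Ctsc in both libraries. Ctsz, an exopeptidase, gave ratios of 8.39 and 10.2. Ctsb gave 5.84 in the knockout and 5.13 in WT, and Ctsh, an aminopeptidase, gave 4.39 and 4.47. For these 3 genes neutrophil-like cells also had a measurable level, up to 99.8 CPM.

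The aspartic proteases departed from this order. Ctsd was at 106 CPM in monocyte-like and 151 CPM in neutrophil-like cells of the knockout, a ratio of 0.702 (0.590 to 0.834), but at 134 and 101 CPM in WT, a ratio of 1.32 (1.11 to 1.58), and its WT log2 ratio turned from 0.40 to -0.45 without the 20 most abundant genes. Ctse was at 22.9 and 48.2 CPM in the knockout and at 38.2 and 84.2 CPM in WT, ratios of 0.475 and 0.454. Its level in both kinds of cells was far under that of erythroid-like cells, described further on.

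Within the monocyte-like cells, several members were higher in the mature class than in the early class. Of 9 members with at least 50 UMIs in both libraries, 5 were at least 2-fold higher in both (Ctss, Ctsb, Ctsc, Ctsl and Ctsa), against 5.17% of all genes. Ctss was at 888 CPM (830 to 950) in mature and 198 CPM in early monocyte-like cells of the knockout, and at 880.0 CPM (823 to 940) and 176 CPM in WT. Ctsa was 2.67-fold higher in the mature class in the knockout and 3.10-fold in WT. Ctsb gave ratios of 2.02 and 2.15, Ctsc of 2.19 and 2.14, and Ctsl of 2.53 and 2.06.

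Psap and Ctsh were not past 2-fold in both libraries between the monocyte classes. For Psap the ratio of the mature over the early class was 1.45 in the knockout and 1.60 in WT, and for Ctsh it was 1.34 and 2.12. Ctsz was as high in the early class as in the mature one, with 332 against 294 CPM in the knockout and 315 against 336 CPM in WT, and the interval of the ratio included 1 in both. A step of the early monocyte-like class above the progenitor-like cells, which were led by Mpo and Elane, was seen for other members. Of 8 members tested there, 5 were at least 2-fold higher in early monocyte-like cells in both libraries, against 11.1% of all genes. Psap was 15.7-fold and 9.30-fold higher, Ctsh 17.2-fold and 8.63-fold, Ctsc 10.8-fold and 5.99-fold, Ctss 6.76-fold and 8.37-fold, and Ctsb 3.05-fold and 2.63-fold. Of the other 3 tested, Ctsz gave 3.24 and 1.97, Ctsa 2.89 and 1.25, and Ctsd 1.06 and 1.23, while Ctsl and Ctse had fewer than 50 UMIs in 1 or both libraries.

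**Figure D2:**
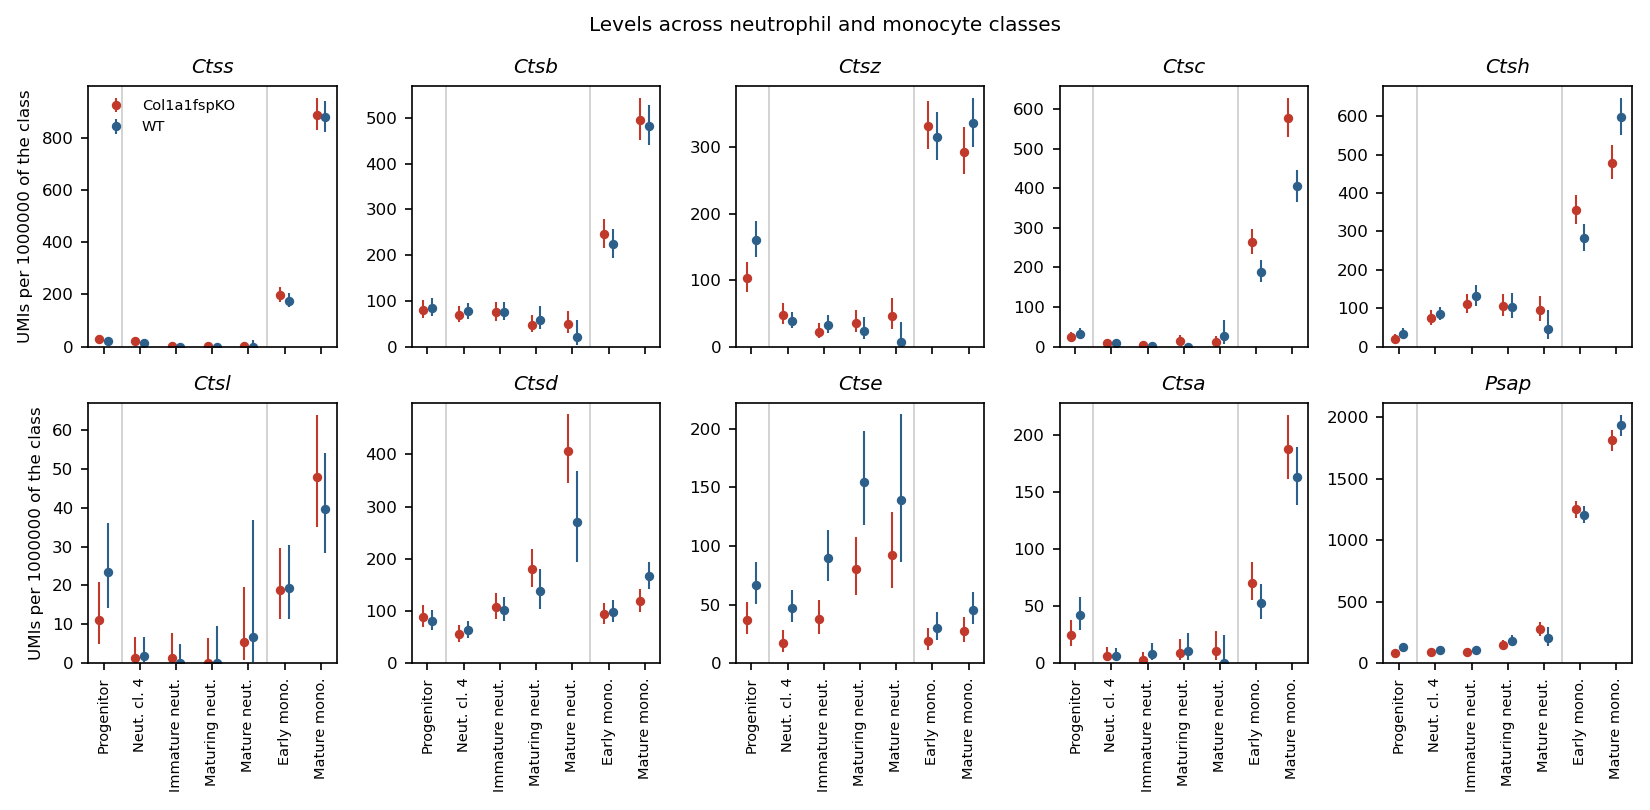
Levels of members in CPM (vertical axes, starting at 0) in progenitor-like cells, 4 neutrophil-like classes and 2 monocyte-like classes (horizontal axes, "-like" left out), with exact 95% Poisson intervals as bars and 1 colour per library. Ctsd is higher in each following neutrophil-like class, from 55.1 and 63.0 in cluster 4 to 407 and 271 in mature cells, whereas Ctss is high in the monocyte-like classes.

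Along the neutrophil-like classes, Ctsd was the member with the clearest order. Its level was 55.1 CPM in cluster 4, 108 in immature, 180 in maturing and 407 (345 to 478) in mature neutrophil-like cells of the knockout. In WT the same classes had 63.0, 102, 139 and 271 CPM (195 to 368). The order of the 4 classes was therefore the same in both libraries. Mature over immature cells gave a ratio of 3.78 (2.85 to 5.03) in the knockout and 2.66 (1.78 to 3.94) in WT, and Ctsd was 1 of 5 members tested that passed 2-fold in both, against 7.84% of all genes. Over cluster 4, mature cells were 7.39-fold and 4.31-fold higher, and Ctsd was 1 of 4 members past 2-fold there, against 9.32% of all genes. After thinning, a Ctsd UMI was found in 58.3% and 46.5% of mature neutrophil-like cells (67.0% and 55.8% unthinned), compared with 11.4% and 15.1% of cluster 4.

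Psap also differed along this path, with 91.0, 88.4, 148 and 274 CPM from cluster 4 to mature cells in the knockout and 104, 105, 183 and 205 CPM in WT. These levels are relative to the UMIs of each class. Median depth fell from 8375.5 and 8585 UMIs per cell in cluster 4 to 3002 and 3335 in mature cells. Psap had 76 UMIs in 88 cells of cluster 4 and 101 UMIs in 115 mature cells of the knockout. In WT it had 112 UMIs in 119 cells and 31 UMIs in 43 cells. Ctse, an aspartic protease like Ctsd, went from 16.8 to 92.3 CPM between cluster 4 and mature cells of the knockout, and from 47.2 to 139 CPM in WT, with its highest WT value, 154 CPM, in maturing cells. From cluster 4 to mature cells, the Ctse values rest on 14 and 34 UMIs in the knockout and on 51 and 21 in WT. Of the cysteine proteases, Ctsb and Ctsh did not share the order of Ctsd. Ctsb was at 69.4 CPM in cluster 4 and 48.8 CPM in mature cells of the knockout, and at 76.9 and 19.9 CPM in WT. Ctsh stayed between 74.2 and 111 CPM over the 4 classes in the knockout, and it was between 46.3 and 131 CPM in WT. The mature WT values of Ctsb and Ctsh rest on 3 and 7 UMIs. Ctsz went from 22.1 CPM in immature to 46.1 CPM in mature cells of the knockout, but from 31.8 to 6.62 CPM (1 UMI) in WT. Ctsc went from 2.76 to 10.9 CPM and from 1.32 to 26.5 CPM, with 4 UMIs in mature cells of either library. Cluster 4 stood above the progenitor-like cells for Ctsh, by 3.58-fold and 2.58-fold, against 9.54% of all genes that were at least 2-fold higher. It stood below them for Ctsz, with ratios of 0.467 and 0.243, against 25.7% of all genes that were at least 2-fold lower.

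Beyond the myeloid classes, plasmacytoid dendritic cell-like cells (42 and 30 cells, named from Siglech and other fixed markers) had the highest level of several members. Plasmacytoid dendritic cells are known for the secretion of type I interferon. Ctsb was at 1125 CPM there in the knockout and 1068 CPM in WT, 2.26-fold and 2.21-fold above mature monocyte-like cells. Ctsl, at 334 and 310 CPM, was 6.97-fold (4.70 to 10.4) and 7.80-fold (4.92 to 12.4) higher, and 54.8% and 53.3% of these cells had a Ctsl UMI after thinning, against 10.8% and 9.42% of mature monocyte-like and 1.05% and 2.11% of erythroid-like cells. Ctsb and Ctsl were thus 2 of 9 members at least 2-fold higher in both libraries, against 7.17% of all genes.

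The same cells were low in Ctsc, with 41.1 and 37.9 CPM, or 0.0712 and 0.0935 of the level in mature monocyte-like cells, against 16.3% of all genes at least 2-fold lower. Ctsh was the highest of any class here, at 920 and 1075 CPM, and Ctsz as well, at 452 and 515 CPM. Psap stood at 2050 and 2324 CPM against 1810 and 1933 CPM in mature monocyte-like cells, and the interval of the ratio excluded 1 in both libraries. For Ctsa the interval of the ratio of these 2 classes included 1 in both. Ctss took the opposite order, with 390 and 469 CPM against 888 and 880.0 CPM.

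In the B lineage, the unnamed cluster 8, led by genes such as Ms4a1, Jchain and Cd74, stood above the pro-B/pre-B cell-like cells for 3 of 8 members tested, against 4.05% of all genes. Ctsh was 24.2-fold and 22.2-fold higher, Ctss 8.99-fold and 6.15-fold, and Ctsz 3.23-fold and 3.92-fold. Ctss in this cluster, at 209 and 216 CPM, did not differ from early monocyte-like cells beyond the interval of the ratio in either library. Cd74, whose product is trimmed by cathepsin S, was at 8790 and 8123 CPM in the same cluster and at 1023 and 964 CPM in mature monocyte-like cells.

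The T/NK cell-like cells, which encompass markers of T cells and of natural killer cells, had a high level of Ctsd. It was at 561 CPM (478 to 653) in the knockout and 350.0 CPM (267 to 450) in WT. This was 3.72-fold and 3.46-fold above neutrophil-like cells as a whole. The gap to mature neutrophil-like cells alone was smaller, and in WT the intervals of the levels overlapped. Ctsd was 1 of 6 members tested that passed 2-fold higher in both libraries, a share below the 22.7% of all genes. Ctsh was at 10.3 and 17.5 CPM in T/NK cell-like cells, from 3 UMIs in each library, against 94.8 and 99.8 CPM in neutrophil-like cells. In WT the summed neutrophil markers of this cluster reached 38759 CPM, with all 10 markers detected, compared with 3723 CPM and 9 of 10 in the knockout, and their part in the Ctsd level was not tested. Cells with a Cd3 UMI and without an Ncr1 or Klrb1c UMI had 478 CPM in the knockout (29 cells) and 151 CPM in WT (12 cells). Cd3d had UMIs in neutrophil-like cells too, so a Cd3 UMI need not mark a T cell here. Cells with an Ncr1 or Klrb1c UMI and no Cd3 UMI had 682 CPM (14 cells) and 401 CPM (5 cells).

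Ctse was a gene of the erythroid-like cells in these libraries. These cells had 607 CPM (564 to 653) in the knockout and 555 CPM (515 to 597) in WT and held 72.3% and 58.8% of all Ctse UMIs. They stood 12.6-fold and 6.59-fold above neutrophil-like cells. Of 6 members tested, 2 were at least 2-fold higher there in both libraries, Ctse and Ctsb (3.42-fold and 2.39-fold), a share near the 32.4% of all genes. Ctsh, 1 of the 6, was at least 2-fold lower, a share below the 23.9% of all genes. After thinning, 80.0% and 65.3% of erythroid-like cells had a Ctse UMI (97.9% and 96.8% unthinned), against 13.2% and 21.1% of neutrophil-like cells (20% and 36.1% unthinned), whose median depth was 3903 and 4518 UMIs. Globin RNA was found in every class, and the summed erythroid markers are given in the comparison of genotypes.

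**Figure D3:**
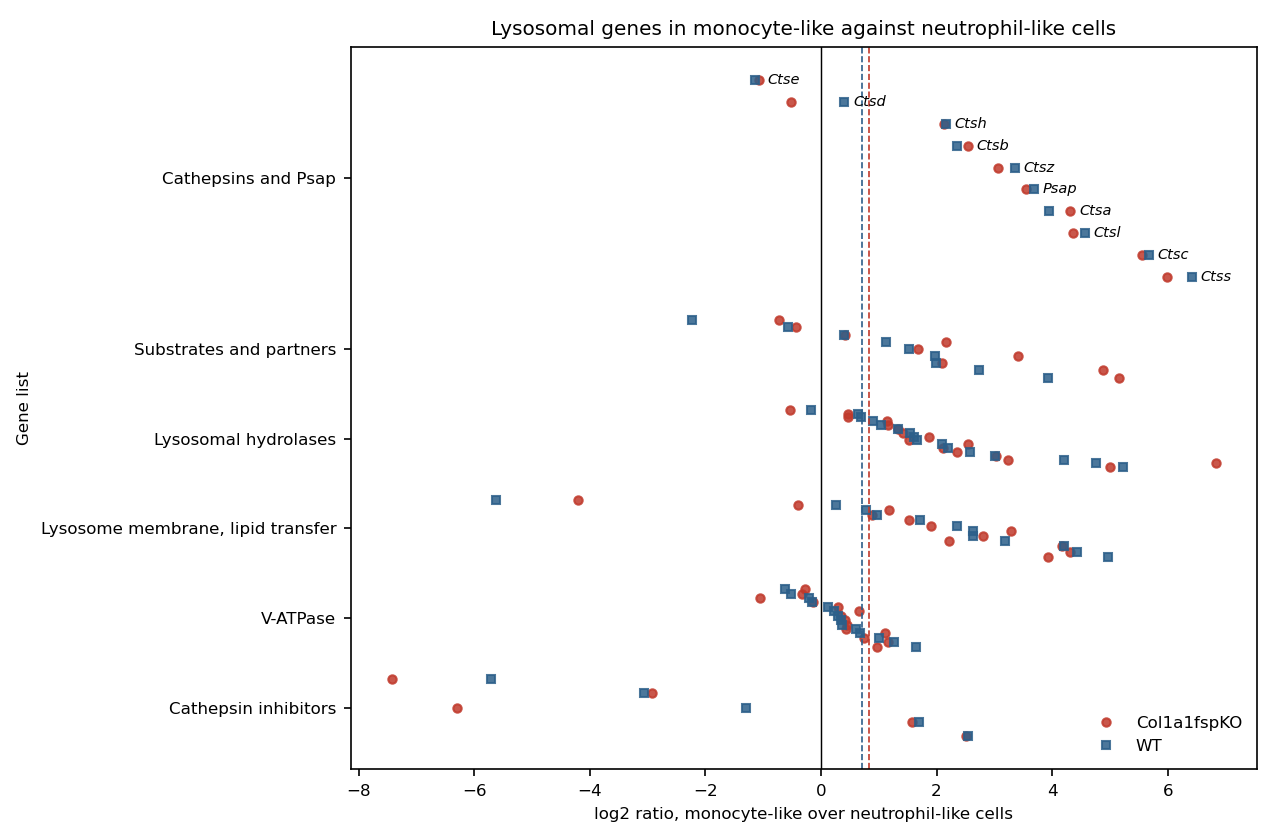
Each point is 1 gene in 1 library, placed by its log2 ratio of monocyte-like over neutrophil-like cells (horizontal axis) and grouped by gene list (vertical axis), for genes with at least 50 UMIs. The cathepsins and prosaposin lie mostly above 0, as do lysosomal hydrolases and membrane proteins, while the V-ATPase genes lie near 0.

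Other genes of the lysosome were set beside the members. For these lists too, 32.8% of all genes were at least 2-fold higher in monocyte-like cells and 6.26% at least 2-fold lower. Of 16 lysosomal hydrolases tested, 12 were at least 2-fold higher in monocyte-like cells in both libraries and 0 were lower, with a median log2 ratio of 1.70 in the knockout and 1.63 in WT. Asah1, the acid ceramidase that a saposin activates, was 5.11-fold and 5.99-fold higher. The lysosomal peptidase Prcp was 32.1-fold and 37.6-fold higher. Scpep1, a further peptidase, was at 45.8 and 34.1 CPM in monocyte-like and at 0.402 and 1.26 CPM in neutrophil-like cells, where it had 1 and 3 UMIs. Of 12 genes of the lysosomal membrane and lipid transfer, 8 were at least 2-fold higher and 1 was lower, against the same 32.8% and 6.26%. Gm2a, the activator of ganglioside breakdown, was at 326 and 310 CPM against 16.5 and 14.3 CPM. The gene that was lower is Cd63, a tetraspanin of lysosomes and granules, with 17.3 and 6.19 CPM against 317 and 306 CPM.

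The V-ATPase, the pump that acidifies lysosomes, differed less. Of its 14 genes tested, 1 was at least 2-fold higher and 0 were lower (32.8% and 6.26% of all genes), with a median log2 ratio of 0.43 and 0.32, below that of all genes. Atp6v1e1 had ratios of 0.798 and 0.699, and Atp6v1d of 0.824 and 0.649. Of 3 transcription factors of lysosomal genes tested, 1 passed 2-fold in both libraries, a share near the 32.8% of all genes. It was Tfec, at 9.02-fold and 17.9-fold, while Tfeb gave 1.83-fold and 2.17-fold.

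Of 5 cathepsin inhibitors tested, 2 were at least 2-fold higher in monocyte-like cells, a share near the 32.8% of all genes, namely Cst3 (cystatin C), at 1853 and 1870 CPM against 323 and 320 CPM, and Cstb (cystatin B), at 252 and 260 CPM against 84.8 and 80.0 CPM. The 3 others were lower in monocyte-like cells: Serpinb1a, an inhibitor of neutrophil serine proteases, with ratios of 0.132 and 0.120, and the stefin genes BC100530 and Gm5483. The stefin genes are close paralogs, so the counting could have split their reads, and both lead the mature neutrophil-like cluster.

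Partners of the members were also mapped. Of 9 substrates and processing partners tested, 6 were at least 2-fold higher in monocyte-like cells and 0 were lower, against 32.8% and 6.26% of all genes. Grn, the progranulin gene, was at 227 and 238 CPM against 71.1 and 82.5 CPM, and M6pr, a receptor that sorts lysosomal enzymes, was at 122 and 117 CPM against 28.5 and 29.5 CPM. Neu1, the sialidase that Ctsa protects, had ratios of 0.745 and 0.677. Serine proteases of the kind that cathepsin C activates are given beside Ctsc. Ctsg, a granule protease that is named a cathepsin, was at 425 CPM (382 to 472) in progenitor-like cells of the knockout and 946 CPM (882 to 1013) in WT, where Ctsc was at 24.4 and 31.5 CPM. In early monocyte-like cells Ctsg was at 187 and 170 CPM and Ctsc at 264 and 189 CPM. Elane, the neutrophil elastase gene, was at 2426 and 3718 CPM in progenitor-like cells and at 692 and 581 CPM in early monocyte-like cells. In T/NK cell-like cells Gzma was at 1887 and 1242 CPM, Ctsc at 68.4 and 40.8 CPM, and Ctsw, a cathepsin of cytotoxic lymphocytes, at 349 and 192 CPM. Of the further cathepsins looked up, Ctso had 173 and 130 UMIs over all cells and Ctsf 10 and 17.

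The members were also compared with one another over 28 points, each being 1 of 14 clusters in 1 library. The points share 2 libraries and differ in depth, so the Pearson correlations of log2(CPM + 10) are a description. Ctss went with Ctsz (0.92), Ctsa (0.92), Psap (0.86) and Ctsc (0.81), and Ctsb with Ctsl (0.85). Ctsd had values between -0.39 and 0.28 with the other members, and Ctse was negative with all but Ctsd. Among 3367 other genes, the patterns most like the members' were those of Ly86 for Ctss (0.95) and Ctsz (0.96), Ms4a4c for Ctsc (0.90), Grn for Ctsh (0.93), Npc2 for Ctsa (0.92), Asah1 for Psap (0.93), Ppfia4 for Ctsb (0.91), Bst2 for Ctsl (0.89), Smim1 for Ctse (0.79) and Rinl for Ctsd (0.66).

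Between genotypes, the members differed by less than 1.5-fold in most classes. Over 14 classes, 71 pairs of a member and a class had at least 50 UMIs, and of these 16 differed by at least 1.5-fold, 14 of them lower in the knockout and 2 higher. Ctse made up 7 of the 16, Ctsd and Psap 3 each, and Ctss, Ctsz and Ctsa 1 each. A share of all genes over the 14 classes together is not given. In the classes of the 14 lower pairs, 3.88% (B cell cluster 12) to 8.9% (basophil/eosinophil-like cells) of all genes were at least 1.5-fold lower. In those of the 2 higher pairs, 8.2% (mature neutrophil-like) and 8.63% (T/NK cell-like) of all genes were at least 1.5-fold higher. Ctss over all monocyte-like cells gave a ratio of Col1a1fspKO over WT of 0.989 (0.907 to 1.08), and Psap of 0.962 (0.915 to 1.01). In monocyte-like cells the only member past 1.5-fold was Ctse, at 0.600 (0.404 to 0.880), with 6.72% of all genes past it in either direction and 3.3% in the lower one, and it was within 1.5-fold after thinning (log2 ratio -0.46) and without 91 cells that carried markers of more than 1 lineage (-0.58). The median log2 ratio was -0.04 for the 10 members and -0.01 for all genes.

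**Figure D4:**
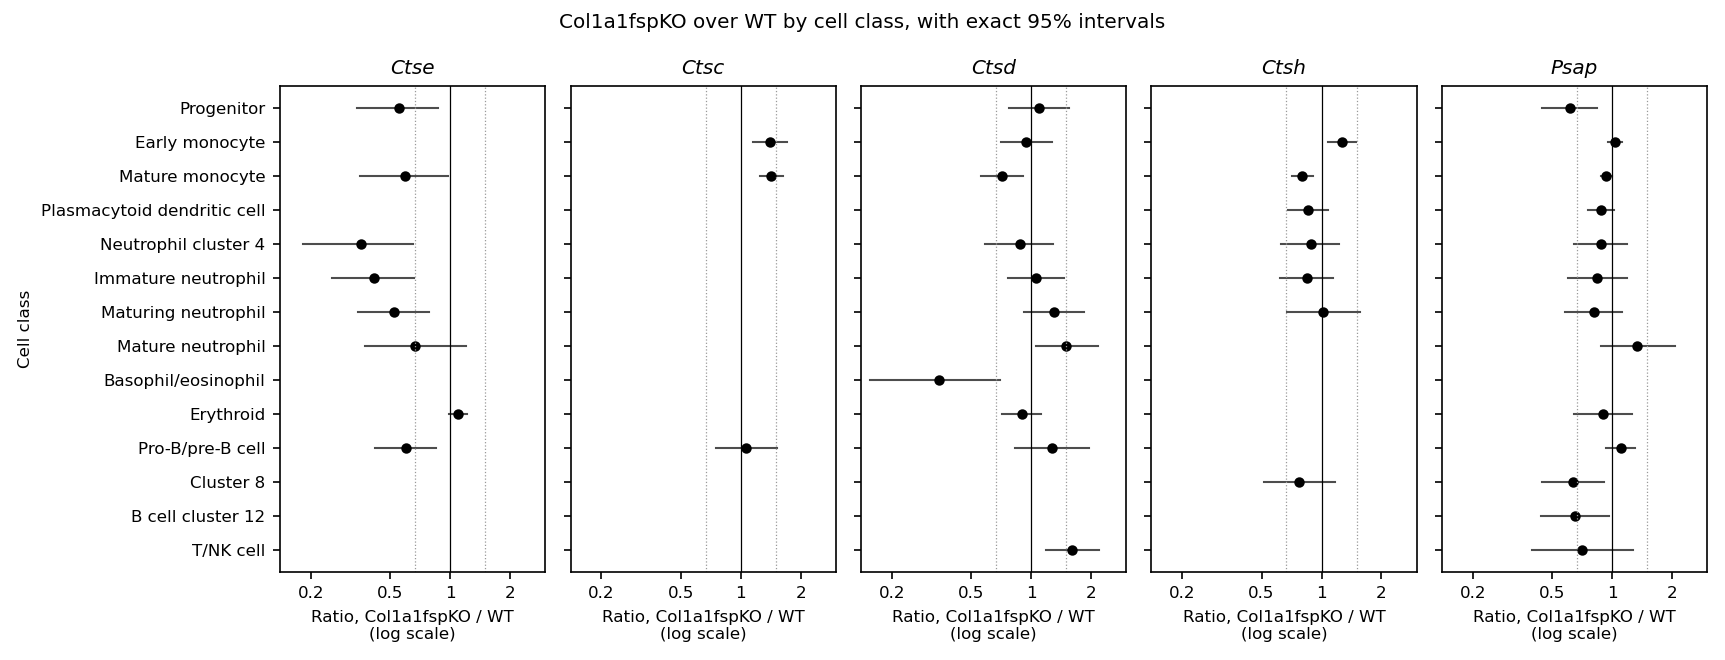
Ratio of Col1a1fspKO over WT (horizontal axes, log scale) by cell class (vertical axis, "-like" left out) for members with at least 50 UMIs in the class, with exact 95% binomial intervals as bars. Ctse lies below 1 in every class shown except erythroid cells, at 1.09, and Ctsc lies above 1 in both monocyte classes.

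Ctsc was higher in the knockout in both monocyte-like classes, though under 1.5-fold. Mature monocyte-like cells had 577 CPM (530 to 627) in the knockout and 405 CPM (366 to 446) in WT, and the ratio was 1.43 (1.25 to 1.62). In early monocyte-like cells it was at 264 and 189 CPM, a ratio of 1.40 (1.15 to 1.70). Over all monocyte-like cells the ratio was 1.39 (1.24 to 1.54), where 5.5% of all genes had an interval above 1. Thinned to equal depth, 76.1% (69.1 to 82.2) of mature monocyte-like cells of the knockout and 61.3% (54.0 to 68.2) of WT had a Ctsc UMI (93.2% and 82.7% unthinned), and in erythroid-like cells the shares were 0 of 95 cells, compatible with at most 3.16%, and 1.05%.

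Ctsd was higher in the knockout over all neutrophil-like cells, with a ratio of 1.49 (1.26 to 1.76), just under 1.5-fold, which 12.6% of all genes passed in either direction. Ctsd passed 1.5-fold under 4 alternatives, such as thinning (log2 ratio 0.68 against 0.58). By class, the ratio was 0.874 in cluster 4, 1.06 in immature, 1.30 in maturing and 1.5005 (1.06 to 2.17) in mature cells. Mature neutrophil-like cells, the neutrophil-like class with the highest Ctsd, were also a larger share of the knockout library. In T/NK cell-like cells Ctsd gave 1.60 (1.19 to 2.19), against 8.63% of all genes at least 1.5-fold higher, and in mature neutrophil-like cells that share was 8.2%. The summed neutrophil markers of the T/NK cell-like cells were at 3723 CPM in the knockout and 38759 CPM in WT. Their part in the ratio of 1.60 was not tested. Ctsd was lower in mature monocyte-like cells, at 119 against 166 CPM, a ratio of 0.715 (0.558 to 0.913). Basophil/eosinophil-like cells had a ratio of 0.346 (0.155 to 0.697), from 10 UMIs in 9 cells and 44 UMIs in 18 cells, where 8.9% of all genes were at least 1.5-fold lower.

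Ctse was lower in the knockout in 7 of the 8 classes with at least 50 UMIs, by at least 1.5-fold in each. In neutrophil-like cells it was at 48.2 CPM in the knockout and 84.2 CPM in WT, a ratio of 0.573 (0.453 to 0.722), where 8.1% of all genes were at least 1.5-fold lower. The ratio was 0.355 (0.181 to 0.651) in cluster 4, 0.415 (0.255 to 0.656) in immature, 0.520 (0.345 to 0.778) in maturing and 0.664 (0.374 to 1.204) in mature neutrophil-like cells, the last of which has an interval that includes 1. In progenitor-like cells it was 0.550 (0.341 to 0.871), in pro-B/pre-B cell-like cells 0.600 (0.419 to 0.850), and in mature monocyte-like cells 0.592 (0.351 to 0.978). Erythroid-like cells, which held most of its UMIs, gave 1.09 (0.986 to 1.22). The share of all genes at least 1.5-fold lower was 5.83% in cluster 4, 4.05% in immature, 4.34% in maturing and 5.71% in mature neutrophil-like cells, 5.85% in progenitor-like, 4.29% in pro-B/pre-B cell-like and 4.47% in mature monocyte-like cells.

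Erythroid RNA differed between the libraries as well, in either direction. The 9 erythroid markers summed to 20460 CPM in neutrophil-like cells of the knockout and 11942 CPM in WT, with none at 0. In cluster 4 they summed to 35859 and 10236 CPM, in immature cells to 12230 and 10250 CPM, in maturing cells to 13081 and 20349 CPM and in mature cells to 12961 and 10951 CPM. They summed to 9660 and 8419 CPM in progenitor-like, 9419 and 13738 CPM in pro-B/pre-B cell-like, 10897 and 9008 CPM in mature monocyte-like, and 10462 and 11447 CPM in all monocyte-like cells. Ctse was thus lower in the knockout both where these markers were higher there and where they were lower, and their part in its level was not tested. Per 1000 UMIs of these markers, Ctse had 2.13 and 2.40 UMIs in erythroid-like cells, and in mature neutrophil-like cells 7.12 and 12.7. The corresponding values were 3.05 and 8.78 in immature neutrophil-like and 0.467 and 4.61 in cluster 4. Thus Ctse per erythroid marker UMI exceeded that of erythroid-like cells in the immature and mature neutrophil-like cells of both libraries, and in cluster 4 only in WT.

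**Figure D5:**
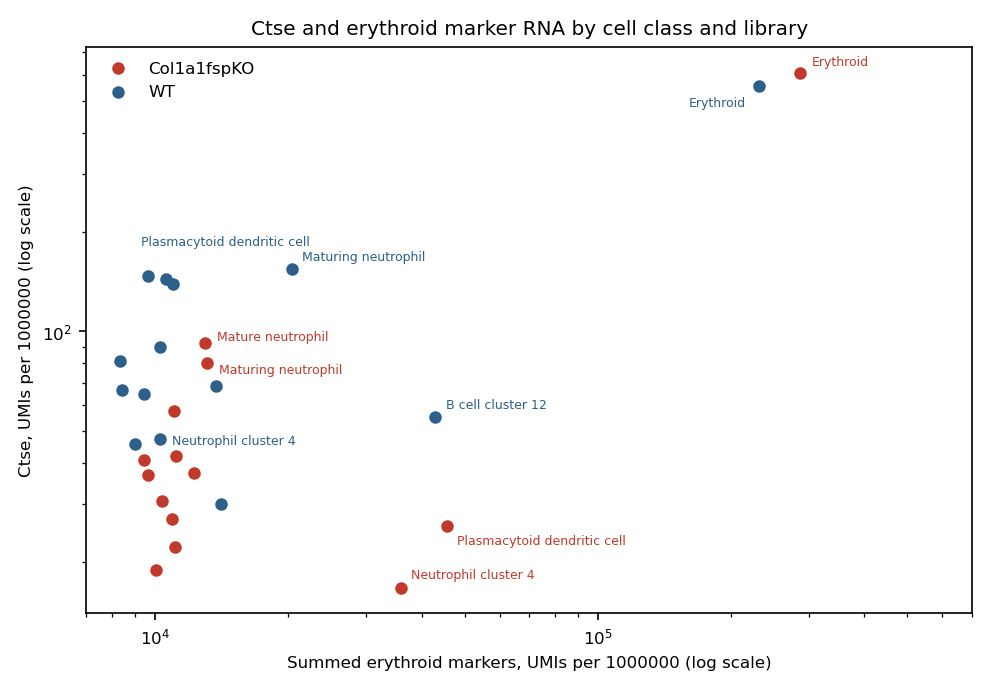
Ctse (vertical axis) against the summed level of 9 erythroid markers (horizontal axis), both in CPM on log scales, with 1 point per cell class and library ("-like" left out). Erythroid cells of both libraries lie at the upper right, at 607 and 555 for Ctse, and each WT neutrophil class lies above the same class of Col1a1fspKO.

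In progenitor-like cells, Ctse and 3 further members were at least 1.5-fold lower in the knockout, out of 6 tested, where 5.85% of all genes were. Ctsz was at 103 against 160 CPM, a ratio of 0.641 (0.483 to 0.847), and Psap at 79.4 against 130 CPM, a ratio of 0.612 (0.444 to 0.839). Ctsa gave 0.581 (0.319 to 1.03), which includes 1. The median log2 ratio of the 6 members was -0.67 and that of all genes -0.06. Ctsg, Elane and Mpo were lower in the same cells, with Mpo at 1025 and 1904 CPM, so the cells of this class differed between the libraries in other genes too, and their part in the members' values was not tested.

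Psap was also lower in the knockout in cluster 8, with 258 against 405 CPM and a ratio of 0.637 (0.444 to 0.909), and in B cell cluster 12, with 0.655 (0.442 to 0.967). The share of all genes at least 1.5-fold lower was 7.09% and 3.88% in these clusters. Ctsh had ratios of 1.26 (1.07 to 1.49) in early monocyte-like cells, with clusters 9 and 11 pooled, and 0.802 (0.708 to 0.907) in mature monocyte-like cells. Ctsb passed 1.5-fold in 0 of 9 classes, and its ratio was 1.03 (0.924 to 1.14) in monocyte-like cells and 1.29 (1.07 to 1.56) in erythroid-like cells. Ctss, in 5 classes, passed it in pro-B/pre-B cell-like cells, at 0.663 (0.405 to 1.07). Ctsl, tested in 2 classes, gave 1.205 (0.771 to 1.89) in mature monocyte-like cells and 1.08 (0.717 to 1.63) in plasmacytoid dendritic cell-like cells, so no difference was detectable at this depth.

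Among the inhibitors, 5 of 8 tested in neutrophil-like cells were at least 1.5-fold higher in the knockout, against 4.45% of all genes. They were stefin genes, such as Stfa2l1, at 347 and 66.2 CPM in mature neutrophil-like cells, from 128 and 10 UMIs. Mature neutrophil-like cells made up 8.79% of the knockout cells and 3.68% of the WT cells. The part of this difference in the count over all neutrophil-like cells was not tested. Cst3 in mature neutrophil-like cells was at 456 and 529 CPM, a ratio of 0.861 (0.656 to 1.14).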

How the data were processed

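The sc-RNA-seq tables deposited by the authors hold unnormalized UMI counts for every gene in every cell, from 10x Genomics 3' v2 libraries with Cell Ranger, whose version is not given in the sources used here. Per the labels, the build was mm10 and Seurat 3.5.3 was used. Cells with 200 to 7000 genes and at most 10% mitochondrial UMIs were kept, which removed 0 cells. Log-normalized values of the merged libraries were clustered, without integration, in R 4.3.3 with Seurat 5.3.0 (2000 variable genes, less 31 list genes, 27 principal components, resolution 0.8). Scrublet, run in scanpy 1.11.5, called 5 doublets per library, and these were kept. This is under 0.5% of cells, and doublets may therefore remain. Clusters took the class whose fixed markers had, on average, the highest z-score of log2(CPM + 10), and stayed unnamed where markers of a different class prevailed among the 10 leading genes. Names rebuilt in this way carry the ending "-like" and can differ from those of the study.

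Levels are per 1000000 UMIs with exact Poisson 95% intervals. Ratios have exact binomial intervals and were formed with at least 50 UMIs, and the sizes named are 2-fold between classes and 1.5-fold between genotypes. Python 3.11.15, numpy 2.4.6, scipy 1.17.1 and matplotlib 3.10.9 were used. With 1 library per genotype no test was made. The calculation was tested on simulated data for the genotype ratio: in mature monocyte-like cells (3626 genes), intervals held the true ratio for 96.8%, 96%, 97.5% and 96.6% of genes set to 0.5, 1, 1.5 and 2, and in mature neutrophil-like cells (841 genes) for 94.9%, 97.8%, 97.2% and 97.1%. The simulated counts were Poisson draws, the model that these intervals assume, without spread between cells or mice. This checks the arithmetic and cannot show whether the intervals suit the data.

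Genes named are the members, cathepsins, inhibitors and partners of fixed lists, the 3 highest and 3 lowest of the other lysosomal lists, and, for each member, the gene most like it of the 3 highest correlations over clusters of at least 20 cells, among genes with at least 500 UMIs. Asah1, Tfec and Tfeb were added after their values were seen. The members and lists were chosen with earlier results of these data known. Positions are from GENCODE M21 and promoters from RefSeq. The alternatives were resolutions 0.4 and 1.2, all variable genes, integration by canonical correlation (CCA), removal of called doublets, a shared minimum of 2909 UMIs, means over single cells, CPM without the 20 most abundant genes and thinning to 2500 UMIs. Removal of 91 cells with markers of more than 1 lineage was added after seeing the data. Protein sequences were not analysed here.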

Additional observations from a re-analysis of the deposited data

Results flagged for a closer look

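Ctsd, the gene of cathepsin D, differed between Col1a1fspKO and WT in opposite directions in different cell classes. Col1a1fspKO over WT gave a ratio of 1.60 in T/NK cell-like cells and of 1.5005 in mature neutrophil-like cells, both with intervals above 1. It was 0.715 in mature monocyte-like cells and 0.346 in basophil/eosinophil-like cells, both with intervals below 1. The last value rests on 10 UMIs in Col1a1fspKO and 44 in WT.

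Ctsh, the gene of cathepsin H, had a ratio of 1.26 in early monocyte-like cells as a whole and 0.802 in mature monocyte-like cells. The intervals of these 2 classes lay on opposite sides of 1. The early class pools clusters 9 and 11, so the ratio of 1.26 need not hold in each of them. With 1 library per genotype, the differences between classes were not tested for either gene.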

How the results depend on the processing

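Of 493 values recomputed under 10 alternatives for 50 results, 443 moved by less than the counting interval (for counts of members, by less than 1.5 times), 49 moved further and 1 reversed. The reversed value was the log2 ratio of Ctsd in monocyte-like over neutrophil-like cells of WT, from 0.40 to -0.45 without the 20 most abundant genes. The number of members past 1.5-fold between genotypes in monocyte-like cells moved from 1 to 0 when cells were thinned to 2500 UMIs and to 0 without the mixed cells. In neutrophil-like cells it moved from 1 to 2 with CCA integration, with means over single cells, with thinned cells and without the mixed cells. In these 4 settings Ctsd passed 1.5-fold too, and the cause was not tested. The log2 ratio of Ctse in neutrophil-like cells was -0.80 and lay between -1.07 and -0.62 under the alternatives, and that of Ctsc in monocyte-like cells was 0.47 and lay between 0.46 and 0.49. CCA integration gave no value for some results. No paired analysis was possible because each group has 1 library. Depth limits the members with few UMIs in neutrophil-like cells, such as Ctsl with 4 and 3 UMIs, and the classes of few cells.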

Other observations

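Cd3d, a T cell receptor component and the third gene by likeness to Ctsd over the clusters (Pearson correlation 0.65 over 28 points), had UMIs in the neutrophil-like classes. From cluster 4 through immature and maturing to mature cells it was at 50.3, 174, 292 and 393 CPM in Col1a1fspKO and at 67.6, 157, 337 and 364 CPM in WT. The T/NK cell-like cells had 643 and 607 CPM. Cd3e, another component of the receptor, stayed between 0 and 2.71 CPM in those neutrophil-like classes. Cd3d was named after its values were seen.

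Cells with at least 3 UMIs of C1qa, C1qb and C1qc together, genes of macrophages, numbered 6 in Col1a1fspKO and 4 in WT. Psap was at 1374 CPM in these cells of Col1a1fspKO (48 UMIs) and 287 CPM in WT (11 UMIs). Their summed erythroid markers reached 139546 and 265699 CPM.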
